A study of Mus musculus with 6 samples.

Results

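The genes described here encode the proteasome, the cytosolic chaperonin, and the heat shock and J-domain proteins of mouse ES cells, and number 93 of the 8340 genes that could be compared between *Prdm14*-null and wild-type cells. Membership was set by name and not by how a gene changed, although the list was chosen with earlier results of these data known. Members are the genes whose symbol on the array begins with Psma, Psmb, Psmc, Psmd, Psme, Psmg, Tcp1, Hsp or Dnaj, or with Cct and a digit, except *Hspg2*, which encodes a basement membrane proteoglycan. Each gene was read by its probe with the highest mean deposited signal, and was kept if that probe lay above background, meaning that its detection p-value was under 0.01, on at least 3 of the 6 arrays. Of 95 symbols taken in this way, 93 were kept. The other 2, *Hspa1a* and *Hspa1b*, encode the stress-inducible HSP70 and were above background on 1 array each, that of wild-type sample 3. Among the 93, *Psmc3ip*, a meiotic recombination factor, and *Psme3ip1*, which encodes a partner of a proteasome activator, share only the letters of the name.

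The comparison sets 3 samples of *Prdm14*-null ES cells (the *Prdm14* knockout) against 3 samples of wild-type control ES cells. Both genotypes are of C57BL/6 background, received no further treatment, and were grown in 2i medium, which contains inhibitors of the kinases MEK and GSK3. Knockout embryos were obtained by crossing heterozygous mice, and ES cells were derived in 2i. Samples of a genotype were taken at consecutive passages, and no source used here says how many cell lines they came from, so p-values measure only the spread between these samples, and other differences between the cell lines cannot be told apart from the genotype. Expression was read from total RNA on Illumina Mouse WG-6 BeadChips. With 3 arrays per genotype, precision is limited by their number.

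The *Prdm14* transcript gave signals of 84.2, 75.6 and 66.6 in null cells, none above background, against 285.5, 427.5 and 487.4 in wild-type cells, each above background, and was at least 6.62-fold lower in null cells. The median signal ranged from 63.5 to 74.8 on the null arrays and from 56.8 to 80.6 on the wild-type arrays, and between 13456 and 14901 probes per array lay above background. Normalized values correlated at 0.990 to 0.994 within and 0.958 to 0.962 between genotypes. All 7 fixed ES cell markers were above background on at least 3 arrays, of which *Pou5f1* and *Sox2* were higher in null cells, by 0.60 and 0.54 on the log2 scale (limma adjusted p = 0.00321 and 0.00421), and 5 were not called. Of 7 markers of extra-embryonic endoderm 2 had a named probe here, with a summed signal of 216 to 513 on null and 157 to 300 on wild-type arrays, and *Dab2* was the only one of them above background on at least 3 arrays. No probe was named for the fibroblast markers. Of 4 trophectoderm markers 2 were measured, with a summed signal of 384.1 to 502 on null and 348.6 to 838.7 on wild-type arrays, and *Krt7* was at least 2.33-fold lower in null cells, where no array was above background. *Eif2s3y*, which is Y-linked, lay above background in all 3 null and in none of the wild-type samples. *Uty*, the other Y-linked gene measured, lay above background on all 6 arrays, with a log2 fold change of 0.31 that was not called. The *Uty* probe was dim, with a mean log2 signal of 6.21 in null and 5.90 in wild-type cells. The weakest detected values of the arrays were close to this, at 5.52 to 5.87. Whether these differences bear on the members was not tested.

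The proteasome degrades proteins that carry ubiquitin. Its barrel-shaped 20S core holds the proteolytic sites inside rings of α and β subunits, and the 19S regulatory particle recognises, unfolds and feeds in the substrate. Heat shock proteins of the HSP70 and HSP90 classes, the ring-shaped chaperonin CCT and the small heat shock proteins keep proteins folded or soluble, and J-domain proteins hand substrates to HSP70 and stimulate its ATPase. Human ES cells are known for high proteasome activity.

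Few of these genes changed in the absence of *Prdm14*. At an adjusted p under 0.01 (limma, Benjamini-Hochberg over the 14436 tested probes), 1 of the 93 members was higher and 4 were lower in *Prdm14*-null cells, which is 5.38% of the members. Of all 8340 tested genes 15.1% passed this threshold, 6.73% of them higher and 8.42% lower. *Hspb6* rose, and *Dnajc5g*, *Hspb8*, *Cct6b* and *Psmb5* fell. *Dnajc5g* passed the filter only through its wild-type arrays, so its direction was fixed by that selection. With only probes detected on 6 of 6 arrays, 1 of 90 members was higher and 3 were lower. This is 4.44%, against 13.6% of all genes under the same filter. The median log2 fold change of the members, null over wild-type, was 0.007, against 0.024 for all tested genes, and the median size of the change regardless of sign was 0.128 against 0.208. The null arrays lay wholly above the wild-type arrays in 15 members and wholly below them in 15, of 93, whereas such separation was seen in 23.6% of all genes upwards and in 21.5% downwards. At an unadjusted p under 0.05, 8 members were higher and 9 lower, a threshold passed by 20.6% of all genes upwards and 19.3% downwards. At an adjusted p under 0.05, 4 members were higher and 6 lower, against 13.3% and 14.1% of all genes.

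Signal strength moves with the share of calls. Among the 2013 tested genes with a mean normalized log2 signal of at least 10, 7.55% were called, and of the 55 members in this range 2 were called. Among the 6327 dimmer genes 17.6% were called, and of the 38 dimmer members 3 were. The members are mostly bright, with a median log2 signal between 10.57 and 10.60 on the null arrays and between 10.53 and 10.70 on the wild-type arrays, whereas the median over all tested genes lay between 8.42 and 8.45 on the 6 arrays. Within a genotype they varied by a median standard deviation of 0.102 on the null and 0.101 on the wild-type arrays, against 0.119 and 0.127 over all genes. How far signal strength accounts for the low share of calls was not tested.

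**Figure D1:**
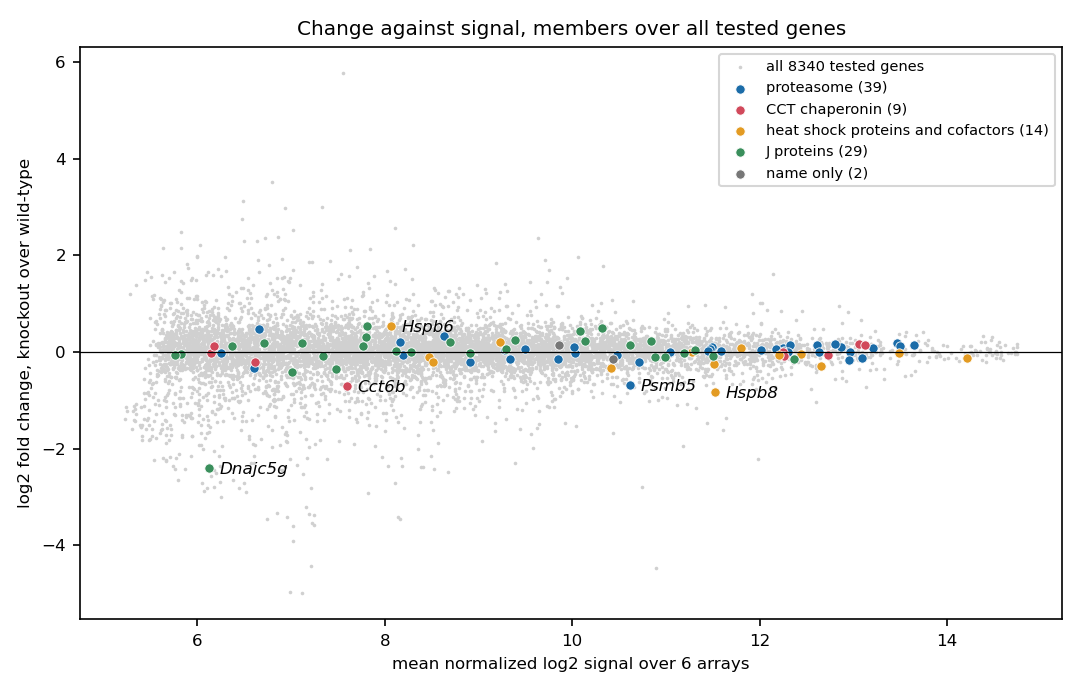
Log2 fold change of *Prdm14*-null over wild-type cells (y axis) against the mean normalized log2 signal over the 6 arrays (x axis), with grey points for the 8340 tested genes and coloured points for the 93 members by class. The 5 called genes are named in the plot, and the largest change among the 88 others is that of *Dnajb9*, at 0.53.

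The fit was precise enough to bound most of these genes. For 90 of the 93 members the 95% interval of the change lay within a 2-fold change in either direction, and for 77 within 1.5-fold. Over all 8340 tested genes the numbers were 7312 and 5271. The interval lay within 2-fold for each of the 88 members that were not called. Their intervals ran from -0.75 to 0.84 at the extremes on the log2 scale. Like the p-values, the intervals cover only the spread between these samples. The standard error of a member's log2 fold change was 0.105 in the median and between 0.088 and 0.197.

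Of 39 proteasome genes, only *Psmb5* was called, which is 2.56%. The share was 15.1% over all tested genes and 7.55% over those with a mean log2 signal of at least 10. The groups of genes below are small, and none was tested against these shares. The 5 measured α subunits of the 20S core had log2 fold changes from 0.03 to 0.20, the median being 0.15, and none was called by limma, nor reached an unadjusted p under 0.05. *Psma2*, the brightest of them, had 0.14 (95% interval -0.07 to 0.34). *Psma5* had a normalized log2 signal of 13.60, 13.55 and 13.53 in null cells and of 13.52, 13.27 and 13.33 in wild-type cells, so that the groups touched without overlapping, with a log2 fold change of 0.18 (95% interval -0.05 to 0.41). *Psma8*, which encodes the α subunit of the testis proteasome, had 0.20 (-0.23 to 0.63) on its brighter and 0.26 on its other probe.

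Among the 7 measured β subunits, *Psmb5* stood apart. It encodes the subunit that carries the chymotrypsin-like activity and is the main target of proteasome inhibitor drugs. Its normalized log2 signal was 10.62, 10.11 and 10.12 in null cells, against 10.87, 10.95 and 11.06 in wild-type cells. The first null sample lay nearest to the wild-type samples, and the groups did not overlap. The log2 fold change was -0.68 ± 0.15 (SE, limma adjusted p = 0.0097), just under the threshold. When single samples were omitted, only the fit without the first null sample still called it, the adjusted p reaching 0.0415 in the other 5. It was also no longer called with the replicate number as a block (0.0189) or with dim probes kept (0.0417), while the log2 fold change stayed between -0.85 and -0.59 in all fits. The other catalytic subunits of the core, *Psmb6* and *Psmb7*, which carry the caspase-like and the trypsin-like activity, had log2 fold changes of -0.16 (95% interval -0.40 to 0.07) and 0.00 (-0.20 to 0.20). *Psmb4*, the brightest β subunit gene, had 0.13 (-0.07 to 0.33). The further probe of *Psmb6* gave -0.18, and the 3 further probes of *Psmb7* gave values from -0.02 to 0.07. *Psmb5* was read by a single tested probe. *Psmb10*, the only immunoproteasome subunit measured, which replaces *Psmb7* in cells that respond to interferon, had -0.20 (-0.45 to 0.05). On this probe the 3 null arrays lay below the 3 wild-type arrays, as in 21.5% of all tested genes. The other probe of *Psmb10* gave -0.10, and its arrays overlapped between the genotypes.

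The 19S particle showed no called gene, against 15.1% of all tested genes. Its 5 measured ATPase subunits, *Psmc1* to *Psmc5*, lay between -0.005 and 0.09, the brightest being *Psmc2* with 0.09, with all intervals between -0.24 and 0.35, and the 11 non-ATPase subunits between -0.33 and 0.14, and no member of either group reached an unadjusted p under 0.05 in limma. *Psmd4*, a ubiquitin receptor, and *Psmd14*, which removes ubiquitin from the substrate, had -0.003 (95% interval -0.23 to 0.23) and -0.02 (-0.35 to 0.31). The largest change in size, -0.33 in *Psmd6*, came from a dim probe and had an interval from -0.75 to 0.09. The activators of the core also showed no call, and on their brightest probes no unadjusted p under 0.05. *Psme1* and *Psme2*, the subunits of the interferon-responsive cap, had 0.01 and 0.05, the nuclear *Psme3* -0.07 and *Psme4* 0.06. The other, dimmer probe of *Psme4* gave 0.35 (95% interval 0.03 to 0.66, limma unadjusted p = 0.0354, adjusted p = 0.104).

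The 6 genes for proteasome assembly chaperones had a median change of 0.184 in size, against 0.101 in all 39 proteasome genes and 0.208 in all tested genes. They were also dimmer, with a median log2 signal of 9.53 in null cells, against 11.51 in all 39. *Psmd9*, which helps to build the base of the 19S particle, had 7.27, 6.62 and 6.80 in null cells and 6.51, 6.37 and 6.38 in wild-type cells, with every null array above every wild-type array. Its log2 fold change was 0.48 (adjusted p = 0.0576) on this probe and 0.45 (adjusted p = 0.0110) on its other probe, and neither passed. *Psmd5*, a chaperone of the same step, had 0.32 (adjusted p = 0.0819). *Psmg1* and *Psmg2*, which encode partners that assemble the α ring, had -0.21 (adjusted p = 0.123) and -0.15 (adjusted p = 0.252) on their brightest probes, with null arrays below wild-type arrays in both. The 2 further probes of *Psmg2* gave -0.51 (adjusted p = 0.00807) and -0.37 (adjusted p = 0.0379), so that 1 of its 3 probes passed. The X-linked *Psmd10*, whose product gankyrin belongs to the same assembly pathway, had 0.10 (95% interval -0.17 to 0.37).

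**Figure D2:**
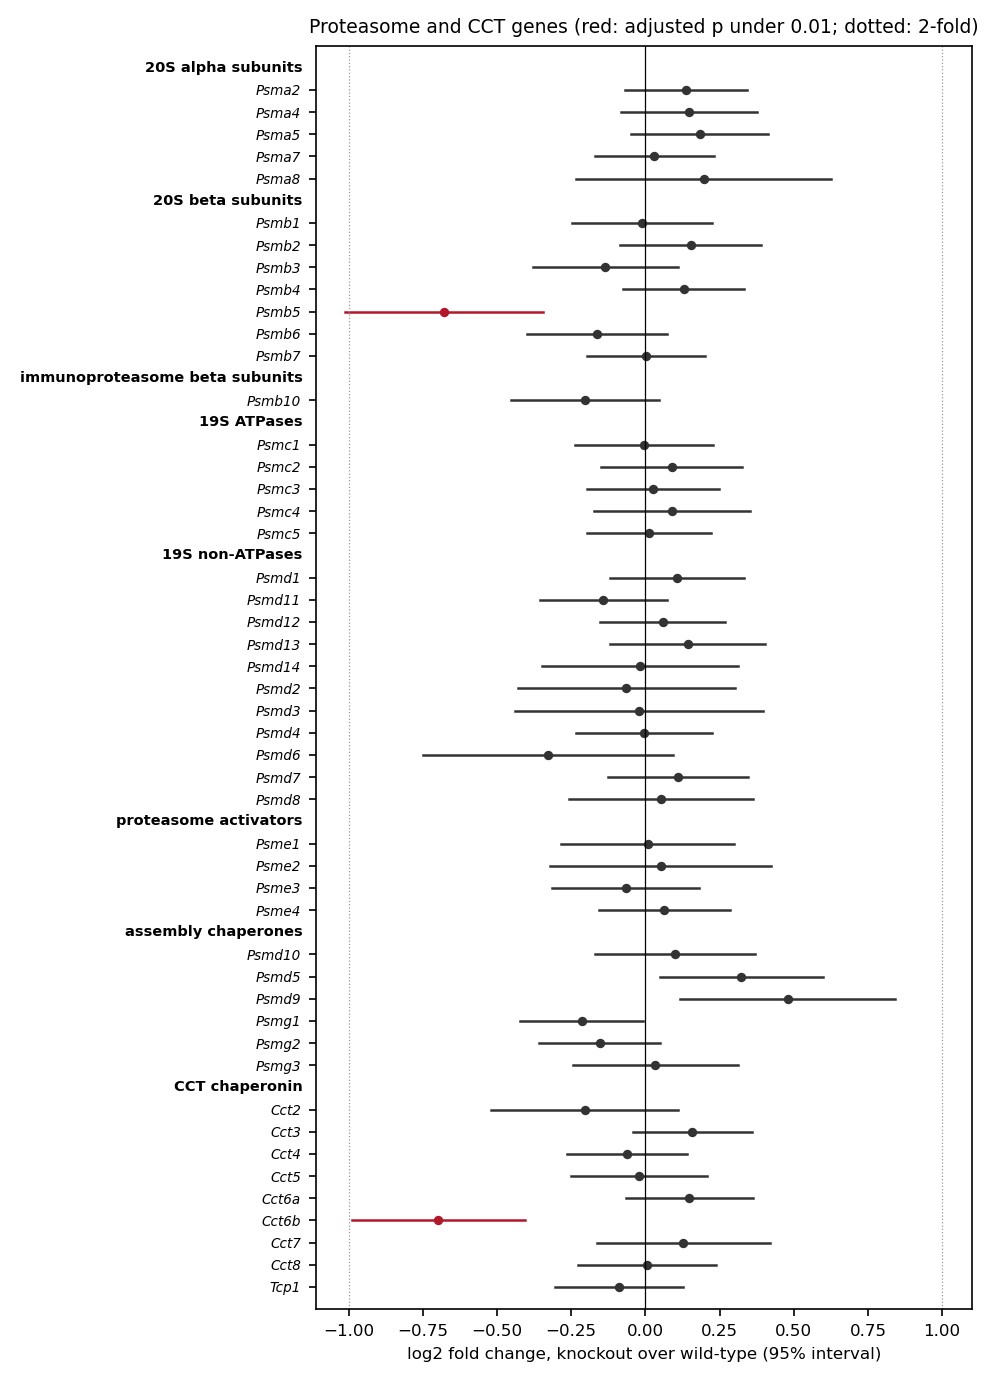
Log2 fold change of *Prdm14*-null over wild-type cells (x axis) for 39 proteasome and 9 CCT genes, with 95% intervals from limma (lines), red where the adjusted p was under 0.01 and dotted lines at a 2-fold change. *Psmb5* and *Cct6b* are the red genes, at -0.68 and -0.70, and most others lie within 0.2 of 0.

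The CCT chaperonin, which folds actin and tubulin, is a double ring of subunits encoded by *Tcp1* and the *Cct* genes. Of 9 measured genes *Cct6b* was lower and 8 were not called, so that 11.1% were called, against 15.1% of all tested genes. The 8 subunit genes other than *Cct6b* had log2 fold changes from -0.20 in *Cct2*, which was read by a dim probe, to 0.16 in *Cct3*. In *Cct3* the arrays of the genotypes were separated by little, with 13.13, 13.13 and 13.15 in null and 12.94, 12.98 and 13.02 in wild-type cells, a log2 fold change of 0.16 (95% interval -0.04 to 0.36).

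*Cct6b* encodes the form of the ζ subunit found in testis, whereas *Cct6a* encodes the form used in most cells. *Cct6b* had normalized log2 signals of 7.46, 7.25 and 7.03 in null cells, against 8.03, 7.81 and 7.99 in wild-type cells. Every null array lay below every wild-type array, and the log2 fold change was -0.70 ± 0.13 (SE, limma adjusted p = 0.00437). *Cct6a* had 0.15 (95% interval -0.07 to 0.36) on its brightest probe and 0.16 on its other. *Cct6b* lies on chromosome 11, where 13 members had a median log2 fold change of -0.095 and all 724 tested genes one of -0.141. With the median of each chromosome removed from each array its log2 fold change was -0.45 and the call ended (adjusted p = 0.0283). Nor was it called with dim probes kept (adjusted p = 0.0191), or when null sample 2 or 3 or wild-type sample 1 or 3 was omitted (adjusted p up to 0.0196). The log2 fold change was -0.42 with the authors' processed values, which are compressed for dim probes.

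Among the J proteins *Dnajc5g* was lower and 28 of 29 measured genes were not called. The share called was 3.45%, against 15.1% of all tested genes. *Dnajc5g* encodes the γ form of the cysteine string proteins, known from testis, where J-domain proteins of this kind attach to vesicle membranes. Its normalized log2 signal was 4.77, 5.28 and 4.74 in null cells, with no array above background, against 7.26, 7.45 and 7.26 in wild-type cells, each above background. It was thus at least 2.98-fold lower in *Prdm14*-null cells (adjusted p = 1.19e-05 from limma), a bound that compares the wild-type mean with the weakest detected signal of each null array, or with the probe itself where it was brighter. As the gene entered the comparison only through its wild-type arrays, it had to differ in order to be measured at all. Its call in the other fits is likewise fixed by that selection and is no sign of stability. With the authors' processed values the fitted log2 fold change was -0.86 in place of -2.39. *Dnajc5*, the α form of the same family, had 0.15 (95% interval -0.10 to 0.40). The other members near the limit of detection were *Dnajc18*, above background on 2 null and 2 wild-type arrays, and *Dnajc28*, above background on 2 null and 3 wild-type arrays, with log2 fold changes of -0.05 and -0.06.

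J proteins that passed an adjusted p of 0.05 but not of 0.01 were *Dnajb9*, *Dnajc10*, *Dnajc6* and *Dnajb13*. *Dnajb9* encodes ERdj4, a cofactor of the HSP70 of the endoplasmic reticulum (ER) that takes part in the disposal of misfolded proteins. It had 8.09, 8.26 and 7.89 in null cells and 7.73, 7.42 and 7.50 in wild-type cells, a log2 fold change of 0.53 (adjusted p = 0.0173), with the groups apart. *Dnajc10*, which encodes the ER disulphide reductase ERdj5, had 10.18, 10.31 and 10.40 in null cells and 10.003, 9.66 and 9.95 in wild-type cells, and log2 fold changes of 0.42 (adjusted p = 0.0321) on this probe and 0.63 (adjusted p = 0.0230) on its other, dim probe, which was above background on 2 null and 1 wild-type arrays. *Dnajc3*, a further cofactor of the ER, had 0.02 (95% interval -0.29 to 0.32).

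*Dnajc6*, which encodes auxilin, the cofactor that strips clathrin from vesicles, had log2 fold changes of 0.49 (adjusted p = 0.0319) and 0.57 (adjusted p = 0.0208) on its 2 probes. Its null arrays lay close together, at 10.51, 10.60 and 10.59, against 10.40, 9.95 and 9.88 in wild-type cells, and without the first wild-type sample it passed the threshold (adjusted p = 0.00356). *Dnajb13*, a sperm flagellum gene, had -0.35 (adjusted p = 0.0384), with 7.31, 7.43 and 7.18 in null and 7.57, 7.69 and 7.72 in wild-type cells. The general J proteins did not pass, as *Dnajb1*, a heat-inducible cofactor of HSP70, had -0.02 (95% interval -0.30 to 0.25), *Dnaja3*, a mitochondrial J protein, -0.10 (-0.32 to 0.13), and *Dnajc19*, part of the mitochondrial import motor and the brightest of class C, -0.16 (-0.36 to 0.05).

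**Figure D3:**
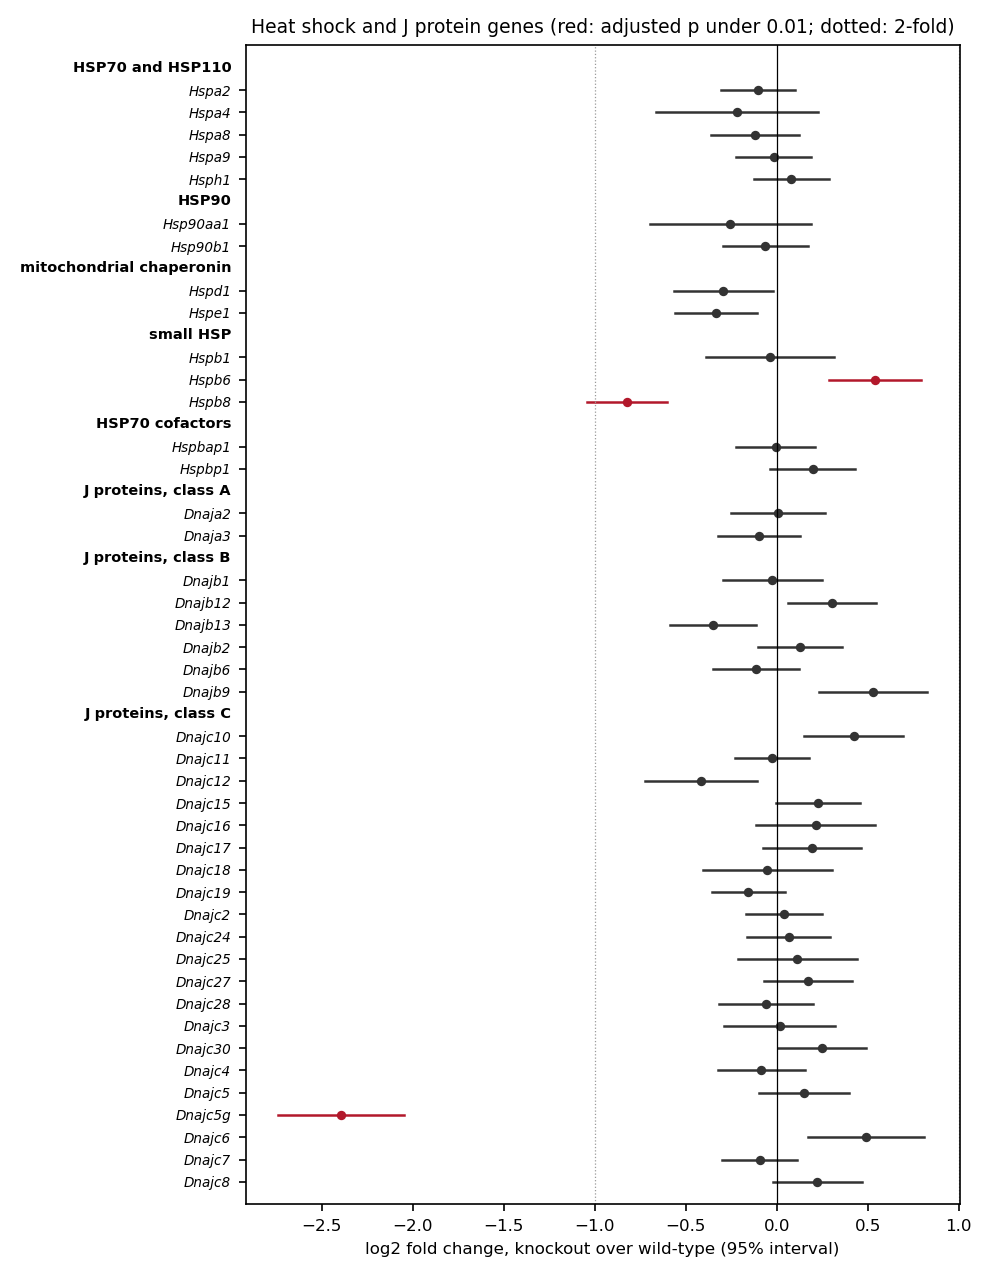
Log2 fold change of *Prdm14*-null over wild-type cells (x axis) for 14 genes of heat shock proteins and their cofactors and 29 J protein genes, with 95% intervals from limma (lines), red where the adjusted p was under 0.01. *Dnajc5g* at -2.39, *Hspb8* at -0.82 and *Hspb6* at 0.54 are the red genes.

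The small heat shock proteins, which bind unfolding proteins without ATP, included 1 call that held in every fit and 1 that did not. *Hspb8*, which encodes HSP22, had normalized log2 signals of 11.07, 11.05 and 11.22 in null cells, against 11.89, 11.92 and 11.995 in wild-type cells. The samples of each genotype lay within 0.2 of each other and the groups were well apart, differing by -0.82 ± 0.10 on the log2 scale (SE, limma adjusted p = 0.000381). Its second probe fell by 0.92 on the log2 scale (adjusted p = 0.000278). The call held in all 12 alternatives that change the values or the fit and in all 6 fits with 1 sample left out, in which the log2 fold change ran from -0.87 to -0.79.

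*Hspb6*, which encodes HSP20, rose. It had 8.33, 8.41 and 8.27 in null cells and 7.90, 7.89 and 7.61 in wild-type cells, a change of 0.54 ± 0.11 on the log2 scale (SE, limma adjusted p = 0.00756). It was not called in any of the 6 fits with a sample omitted (adjusted p from 0.0129 to 0.0359), with the replicate number as a block (0.0128) or with dim probes kept (0.0188), although the log2 fold change stayed between 0.37 and 0.60. *Hspb1*, encoding HSP27, had -0.04 (95% interval -0.39 to 0.31). The 3 small heat shock genes measured therefore comprised 1 that fell, 1 that rose and 1 that was not called.

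HSPB8 acts together with the co-chaperone BAG3, which links small heat shock proteins to HSP70 and to autophagy. In a list of 19 co-chaperones of HSP70 and HSP90, of which 17 were measured, *Bag3* rose, *Fkbp5* fell and 15 were not called. The share called was 11.8%, against 15.1% of all genes. At an unadjusted p under 0.05, 3 were higher and 4 lower, a threshold passed by 20.6% of all genes upwards and 19.3% downwards. *Bag3* had 10.29, 10.30 and 10.23 in null cells, against 8.6, 8.95 and 8.90 in wild-type cells. The null samples lay far above the wild-type samples, differing by 1.45 ± 0.12 on the log2 scale (SE, limma adjusted p = 4.18e-05), which was called in all 12 alternatives and 6 fits with 1 sample left out. *Hspb8* and *Bag3* thus changed in opposite directions. *Fkbp5*, which encodes a peptidyl-prolyl isomerase that binds HSP90, had -0.58 (adjusted p = 0.00799), and was not called in any fit with a sample omitted (adjusted p up to 0.0327). *Stip1* and *Cdc37*, which load clients onto HSP90, had -0.06 and -0.07.

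No gene of the HSP70, HSP110 or HSP90 classes was called, against 15.1% of all tested genes. On their brightest probes none of these 7 genes reached an unadjusted p under 0.05 in limma. *Hspa8*, the constitutive HSP70, had 13.99, 14.28 and 14.20 in null cells and 14.29, 14.21 and 14.32 in wild-type cells, with overlapping groups and a log2 fold change of -0.12 (95% interval -0.36 to 0.12). Its 2 further probes gave -0.32 (limma unadjusted p = 0.0338, adjusted p = 0.101) and 0.15, each without overlap between the genotypes. Its probes thus did not share a direction. *Hspa9*, the mitochondrial HSP70, had -0.02 (-0.22 to 0.19), *Hsph1*, a nucleotide exchange factor of the HSP110 class, 0.08 (-0.13 to 0.29), and *Hspa2*, an HSP70 of testis, -0.10 (-0.31 to 0.10). *Hspbp1*, which encodes a nucleotide exchange factor of HSP70, had 0.20 (-0.04 to 0.43), *Hspbap1*, whose product binds a small heat shock protein, -0.01 (-0.22 to 0.21), and *Hsp90b1*, the HSP90 of the ER, -0.06 (-0.29 to 0.17). *Hsp90aa1*, the inducible cytosolic HSP90, varied within the genotypes, with 11.15, 11.50 and 11.52 in null and 11.21, 11.99 and 11.73 in wild-type cells, and its log2 fold change of -0.25 had an interval from -0.70 to 0.19.

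*Hspd1* and *Hspe1* encode HSP60 and HSP10, the barrel and lid of the mitochondrial chaperonin, and are transcribed in opposite directions from neighbouring starts on chromosome 1. *Hspe1* had 10.13, 10.31 and 10.29 in null cells and 10.55, 10.65 and 10.53 in wild-type cells, a log2 fold change of -0.33 (adjusted p = 0.0374 from limma). *Hspd1* had 12.31, 12.70 and 12.50 in null cells and 12.72, 12.86 and 12.83 in wild-type cells, a log2 fold change of -0.29 (adjusted p = 0.108). In both genes every null array lay below every wild-type array, the separation being small in *Hspd1*, and neither passed the threshold. The second probe of *Hspd1* gave 0.08 (adjusted p = 0.632), against the direction of the first. Such a difference of sign between probes was seen in 15 of the 41 members with several tested probes. In *Dnaja3* the further probe, above background on 3 null and 1 wild-type arrays, gave 0.38 (adjusted p = 0.0600), and in *Dnajb6* 2 of the 3 further probes gave 0.23 and 0.20, whereas the other gave -0.04 and the brightest -0.12. The other 11, besides *Hspd1* and *Hspa8*, were *Dnaja2*, *Dnajc11*, *Psma7*, *Psmb7*, *Psmc2*, *Psmd2*, *Psmd7*, *Psmd10*, *Psmd11*, *Psmd12* and *Psmd14*, in which no probe changed by more than 0.27 in size.

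**Figure D4:**
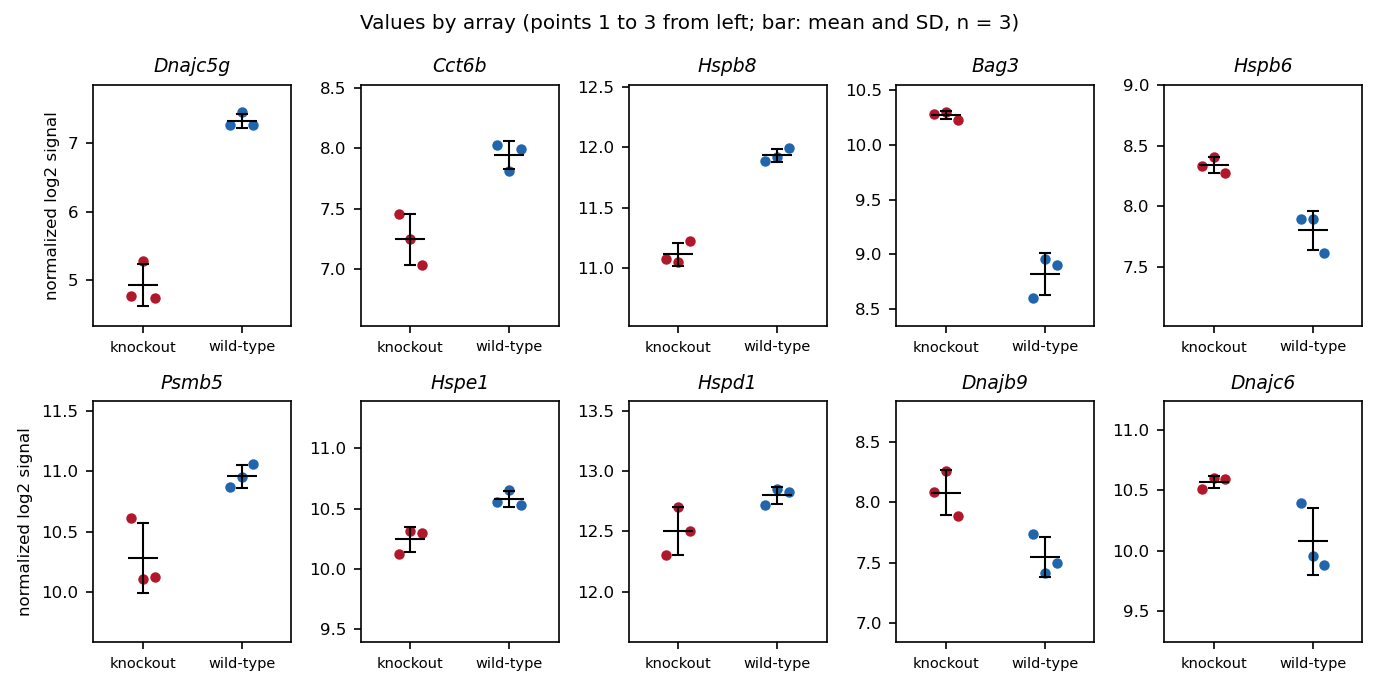
Normalized log2 signal (y axes, each with its own range) by array in *Prdm14*-null (red) and wild-type (blue) cells, points in the order of samples 1 to 3, with the mean and standard deviation (n = 3) as bars. The 10 genes were chosen with their values known, and the genotypes do not overlap in any of them. Over all tested genes such separation was seen in 23.6% upwards and 21.5% downwards. *Dnajc5g*, *Cct6b*, *Hspb8*, *Bag3*, *Hspb6* and *Psmb5* were called, against 15.1% of all tested genes.

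Promoters of the 5 called members and of *Hspe1* are given to show which elements of the heat shock and proteasome programmes lie at their starts. The windows run from 250 bases before to 50 bases after the RefSeq start in GRCm38.p6, 5′ to 3′ on the gene's strand, at chr5:31108069-31108368 (*Dnajc5g*, plus strand), chr11:82764272-82764571 (*Cct6b*, minus), chr5:116422815-116423114 (*Hspb8*, minus), chr7:30553051-30553350 (*Hspb6*, plus, the one of its 2 annotated starts that holds a motif), chr14:54617946-54618245 (*Psmb5*, minus) and chr1:55087898-55088197 (*Hspe1*, plus). Capitals mark matches to GAANNTTC or TTCNNGAA, the paired units that heat shock factors bind in either order, and to TGACNNNGC, the core of the antioxidant response element.
Dnajc5g: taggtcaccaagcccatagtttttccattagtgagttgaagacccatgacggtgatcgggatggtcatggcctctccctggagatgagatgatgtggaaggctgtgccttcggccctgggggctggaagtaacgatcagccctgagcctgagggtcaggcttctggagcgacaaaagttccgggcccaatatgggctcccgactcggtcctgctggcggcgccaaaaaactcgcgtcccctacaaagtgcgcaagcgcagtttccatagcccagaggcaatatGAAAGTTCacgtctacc
Cct6b: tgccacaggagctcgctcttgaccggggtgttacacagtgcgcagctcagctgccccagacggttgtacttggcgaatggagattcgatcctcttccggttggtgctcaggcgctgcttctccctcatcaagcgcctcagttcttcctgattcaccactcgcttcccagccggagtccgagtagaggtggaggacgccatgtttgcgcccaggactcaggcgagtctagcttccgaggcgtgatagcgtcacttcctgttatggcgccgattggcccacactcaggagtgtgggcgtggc
Hspb8: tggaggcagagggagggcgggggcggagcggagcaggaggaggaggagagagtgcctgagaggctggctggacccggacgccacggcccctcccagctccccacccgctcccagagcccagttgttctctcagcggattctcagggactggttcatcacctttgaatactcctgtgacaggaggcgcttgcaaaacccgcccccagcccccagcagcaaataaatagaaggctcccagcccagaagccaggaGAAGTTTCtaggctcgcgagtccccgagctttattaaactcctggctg
Hspb6: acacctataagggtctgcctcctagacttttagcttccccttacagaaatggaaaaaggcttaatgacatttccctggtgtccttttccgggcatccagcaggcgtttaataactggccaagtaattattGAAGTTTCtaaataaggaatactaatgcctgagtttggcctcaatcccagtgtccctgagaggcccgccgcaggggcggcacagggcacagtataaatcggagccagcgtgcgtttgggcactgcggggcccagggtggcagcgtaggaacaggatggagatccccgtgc
Psmb5: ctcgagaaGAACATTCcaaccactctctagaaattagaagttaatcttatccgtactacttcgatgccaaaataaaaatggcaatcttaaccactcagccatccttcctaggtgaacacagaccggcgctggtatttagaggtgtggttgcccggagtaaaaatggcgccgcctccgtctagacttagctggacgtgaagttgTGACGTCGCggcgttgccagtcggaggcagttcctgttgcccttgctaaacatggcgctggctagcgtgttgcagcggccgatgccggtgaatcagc
Hspe1: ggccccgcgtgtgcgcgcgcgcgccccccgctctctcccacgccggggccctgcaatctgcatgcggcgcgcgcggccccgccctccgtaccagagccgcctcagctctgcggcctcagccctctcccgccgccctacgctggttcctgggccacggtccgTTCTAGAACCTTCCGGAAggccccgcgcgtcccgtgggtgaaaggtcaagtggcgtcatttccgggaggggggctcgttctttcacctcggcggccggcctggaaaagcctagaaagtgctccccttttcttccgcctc

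The *Hspe1* window holds GAACCTTC overlapped on both sides by TTCTAGAA and TTCCGGAA, which makes 1 unbroken array of units, its first base 89 bases before the start. This window shares 285 bases with that of 1 of the 2 annotated starts of *Hspd1*. *Psmb5* holds GAACATTC 242 bases and TGACGTCGC 47 bases before the start, *Hspb6* GAAGTTTC 120 bases before it, and *Hspb8* and *Dnajc5g* have a match after the start, at positions 3 and 34. *Cct6b* holds none of the motifs searched. Both strands were searched, and the heat shock motifs read the same on either strand. Of 32851 RefSeq promoter windows, 7.86% held GAANNTTC, 8.52% TTCNNGAA and 12.4% TGACNNNGC. Of the 93 members 75 were in the table, with 89 windows, of which 14.6%, 12.4% and 20.2% held these motifs, and the bearers included genes that were not called, such as *Hsph1*, *Hspb1* and *Cct2* for GAANNTTC. The ER stress element was present in 0.119% of all windows and in those of *Dnajc3* and *Hsp90b1* among the members, with changes of 0.02 and -0.06. A match shows only that the letters are present.

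Lists of further genes of the same pathways are set against the 15.1% of all genes that were called. At an unadjusted p under 0.05 the shares of all genes were 20.6% higher and 19.3% lower. Of 19 proteasome partners 9 were measured and none was called by limma, though 3 reached an unadjusted p under 0.05 (*Rad23b*, *Ufd1* and *Usp14*). Their log2 fold changes ran from -0.25 to 0.43, among them -0.06 for *Pomp*, the maturation factor of the core, and 0.12 for *Vcp*, the ATPase that delivers ubiquitylated proteins. In 8 genes of prefoldin and related cofactors of CCT, 6 were measured and 16.7% were called, as *Pdcl*, which encodes a phosducin-like protein, rose by 0.82 ± 0.09 on the log2 scale (SE, limma adjusted p = 0.000235), while the 4 prefoldin genes with a Pfdn symbol lay between -0.05 and 0.20. Of 18 genes of ER folding and the unfolded protein response 13 were measured and 15.4% were called, with 5 higher and 4 lower at an unadjusted p under 0.05. *Pdia6*, a protein disulphide isomerase, rose by 0.55 (adjusted p = 0.0087) and *Ddit3*, the stress-induced transcription factor CHOP, fell by 0.68 (adjusted p = 0.00833). Each was called in 1 of the 6 fits with a sample omitted (adjusted p up to 0.0337 for *Pdia6* and 0.0363 for *Ddit3*). *Hyou1*, an ER chaperone of the HSP110 class, had the largest change of the list, 0.73 (adjusted p = 0.0105), and did not pass, with every null array above every wild-type array and 2 wild-type arrays above background. The second probe of *Ddit3* passed with -0.67, and that of *Pdia6* did not, with 0.36 (adjusted p = 0.0615). Of 9 measured genes of mitochondrial proteostasis none was called, the range being -0.21 to 0.52, and *Htra2* and *Pmpcb* reached an unadjusted p under 0.05. Of 8 regulators 5 were measured and none was called, while 1 reached an unadjusted p under 0.05. This was *Nfe2l1*, which encodes a transcription factor of proteasome genes, with -0.48 (adjusted p = 0.0162). *Nfe2l2*, which acts in the antioxidant response, had -0.11, and *Hsf2*, which encodes a heat shock factor, -0.02. Among 3 measured neighbours of the immunoproteasome in the interferon response, *B2m*, *Irf1* and *Tapbp*, none was called by limma or reached an unadjusted p under 0.05.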

How the data were processed

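Total RNA from 3 *Prdm14*-null and 3 wild-type ES cell samples was labelled and hybridized to Illumina Mouse WG-6 BeadChips. The authors deposited raw signal intensities of 45281 probes with a deposited detection p-value each. A table of 15961 probes, on a scale close to log2 and quantile-normalized by the authors, was deposited too. The submitters' processing notes name lumi, with no settings given in the sources used here.

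Analysis started from the intensities, with limma 3.58.1 in R 4.3.3. Background was corrected by the normal-exponential model (nec, negative controls inferred from detection p-values) with an offset of 16, followed by log2 transformation and quantile normalization. Probes detected at p under 0.01 on at least 3 arrays (14436) were tested for genotype by lmFit and eBayes with Benjamini-Hochberg adjustment. The threshold of 0.01 is that of the study's methods. Intervals are 95% intervals of the moderated fit. The fit was also run on simulated data with independent normal noise for each probe and array. As these held no effects shared between samples, they do not show how the intervals hold for the samples used here.

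Symbols came from the platform annotation, which gave 13842 probes a single symbol, and chromosomes from GRCm38.p6. A symbol without a named probe was not analysed here. In the 41 members with several tested probes, 33 of 50 further probes had the sign and 49 the call of the brightest. Probes of close paralogs may share signal.

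The members and lists were chosen with earlier results of these data known. Genes named are all called members, the largest uncalled change and the brightest gene of each functional group, members near detection, those whose probes differed in call or sign, called genes of the pathway lists, and further genes chosen after their values were seen. Alternatives covered background correction, offset, scaling, the authors' values, filter, variance model, array weights, replicate block, threshold, probe averaging, chromosome medians and each sample omitted. Samples of the same replicate number did not deviate together (correlations of -0.027, -0.064 and -0.125).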

Additional observations from a re-analysis of the deposited data

How the results depend on the processing

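The 5 calls did not rest on scaling: median scaling and the mean of a gene's probes gave the same 5 genes. The count of higher members, 1 in the fit reported, was 3 with no background correction, with the authors' processed values and with array weights, 2 with an offset of 50, 4 with the eBayes trend, with the trend and robust fit and at an adjusted p under 0.05, and 0 without a filter on dim probes. *Dnajb9*, *Dnajc6* and *Dnajc10* were the genes added. *Hspe1* joined the lower ones with the authors' values and both eBayes trends. The count of lower members, 4 in the fit reported, was 2 without a filter on dim probes, *Dnajc5g* and *Hspb8*. With the replicate number as a block 0 members were higher and 3 lower, and over all genes 408 were higher and 607 lower, against 561 and 702. Same-numbered samples did not deviate together, but deviations from the means of 3 arrays cannot exclude that they were paired.

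With 1 sample left out, the count ran from 0 to 1 higher, the 1 being *Dnajc6* without the first wild-type sample, and from 2 to 4 lower, and the median log2 fold change from -0.007 to 0.038. *Hspb8* was lower in all 6 of these fits. So was *Dnajc5g*, which passed the filter only through its wild-type arrays, so that this is no sign of stability. The median was 0.053 with chromosome medians removed. Over all genes the share called ran from 9.15% without the second null sample to 27.4% at an adjusted p under 0.05, and at the threshold of 0.01 it reached 20.7% with the eBayes trend and robust fit. Neither the called members nor *Bag3*, *Fkbp5*, *Pdcl*, *Pdia6* and *Ddit3* changed direction under any alternative. For *Dnajc5g* the direction was fixed by the filter, so its constancy shows nothing. *Prdm14* and the cell type and Y-linked marker genes were not followed under the alternatives. No block for the BeadChip was fitted, as its layout was not used here. Dim members, such as *Cct2*, *Cct5*, *Cct7*, *Psmd3* and *Psmd6*, were read close to background, which limits what their intervals show.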

Other observations

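Members known from testis were looked at together after their values had been seen, so no test is given. *Cct6b* and *Dnajb13* had log2 fold changes of -0.70 and -0.35, with the null arrays below the wild-type arrays in both. Such separation downwards was seen in 21.5% of all tested genes. The call of *Cct6b* ended with chromosome medians removed (limma adjusted p = 0.0283). *Dnajc5g* was at least 2.98-fold lower, and as it was measured only through its wild-type arrays its direction was fixed by that selection. *Hspa2* with -0.10 was lower to a small extent, with the same separation of arrays, and *Psma8* with 0.20 was not separated. The meiotic recombination factor gene *Psmc3ip*, with -0.16, was not separated either.

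The stress-inducible *Hspa1a* and *Hspa1b* had signals of 67.8, 63.2 and 60.0 and of 72.9, 72.4 and 67.9 on the null arrays, against 65.5, 92.7 and 132 and 59.6, 97.2 and 121 on the wild-type arrays, and were above background on 1 of 6 arrays each. The genes are near-identical copies, so their probes cannot be taken as separate measurements. *Hspa4* differed within the wild-type samples, with 8.45, 8.46 and 8.32 in null cells and 8.55, 9.11 and 8.22 in wild-type cells.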
